A study of Mus musculus with 20 samples.

Results

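Adult wild type colon was compared with adult wild type small intestine. The comparison used the wild type channel of the series' adult arrays, that is 3 pools of colon RNA (6 arrays) and 2 pools of small intestine RNA (4 arrays), or 5 of the 20 pools hybridized in the whole series. The series studied Spdef, a transcription factor of goblet and Paneth cells. Per the labels, the wild type mice were adults, given as postnatal day 30, and RNA came from whole dissected colons or small intestines. Each pool combined 2 to 3 littermates. Every array held a wild type pool in one dye and an Spdef knockout (KO) pool of the same tissue in the other, and each pair of pools was hybridized a second time with the dyes exchanged. The labels give neither strain nor sex, and whole organs were used, so that a change along an organ and a change between cell types cannot be told apart. The KO pools, 3 of adult colon and 2 of adult small intestine that lack Spdef, served as a repeat of the tissue difference on the same slides and for a test of its change with genotype.

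The small intestine digests and absorbs nutrients. Its columnar enterocytes carry hydrolases and transporters on the brush border and package dietary fat with apolipoproteins, and its crypts end in Paneth cells that secrete defensins. The colon has no villi and few or no Paneth cells; it recovers water and salt, is rich in goblet cells and houses most of the gut's microbes. Hox genes, which lie in 4 clusters and pattern the body from head to tail, mark positions along the gut in the order of the clusters.

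Between 55.5% and 68.6% of probes were well above background in the wild type channel on all arrays except one of colon pool 1, which had 39.8% and stood apart. The 2 dye orders of that pool differed by a median of 0.83 on the log2 scale across genes, against 0.20 to 0.25 in the other 4 pools. Across genes, which are not independent replicates, colon pool 1 correlated with colon pools 2 and 3 at r = 0.91 and 0.94, against 0.98 between colon pools 2 and 3 and 0.99 between the small intestine pools. Results are therefore also given without colon pool 1. Pair 1 of both tissues was scanned on 1 day, pair 2 of both lay on 1 slide, and colon pool 3 was scanned on another day. Values are log2 array intensities, so levels compare 1 gene between pools and not different genes, and differences are colon minus small intestine with limma's standard error (n = 3 and 2 pools). The number of arrays limits the precision. Since nothing in the labels says how the pools of a group were separated beyond their littermates, p-values measure the spread between these pools.

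Of 15991 genes tested, 1564 (9.78%) passed an adjusted p of 0.05 in either direction, 815 (5.1%) higher and 749 (4.68%) lower in colon. The median difference over all genes was 0.04. With median centring of the arrays in place of Aquantile, 219 genes were higher and 133 lower, and the median was 0.31. At 8-fold or more stood 98 of the genes higher and 200 of those lower in colon. The colon and small intestine pools of all 1564 did not overlap, and nor did those of 47.3% of all genes tested. Within the slide that held pair 2 of both tissues, 1564 of 1564 had the same sign, against 76.7% of all genes, and within the scan day of pair 1 the number was also 1564. Pools that do not overlap have the same sign in any pairing. These counts therefore follow from the separation and are no check on slide or day. Without colon pool 1, 2092 genes (13.1%) were higher and 1800 (11.3%) lower, and all 1564 genes were again past the threshold in the same direction. Without small intestine pool 1, 160 genes were higher and 271 lower, and without small intestine pool 2, 148 and 252; there a lone pool stands for the tissue and is assumed to vary like the colon pools. Without colon pool 3 the numbers were 355 and 439. Gene list counts below stand against these shares of all genes: 5.1% higher and 4.68% lower, or 13.1% and 11.3% without colon pool 1. A probe was kept if every array of colon, or every array of small intestine, had it well above background. Genes below background in a tissue, given below with an "at least" fold, therefore passed through the other tissue alone. Their direction, which also enters the list counts, was largely set by the filter. In the plot of differences against level, the points farthest from 0 belong to genes lower in colon.

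**Figure D1:**
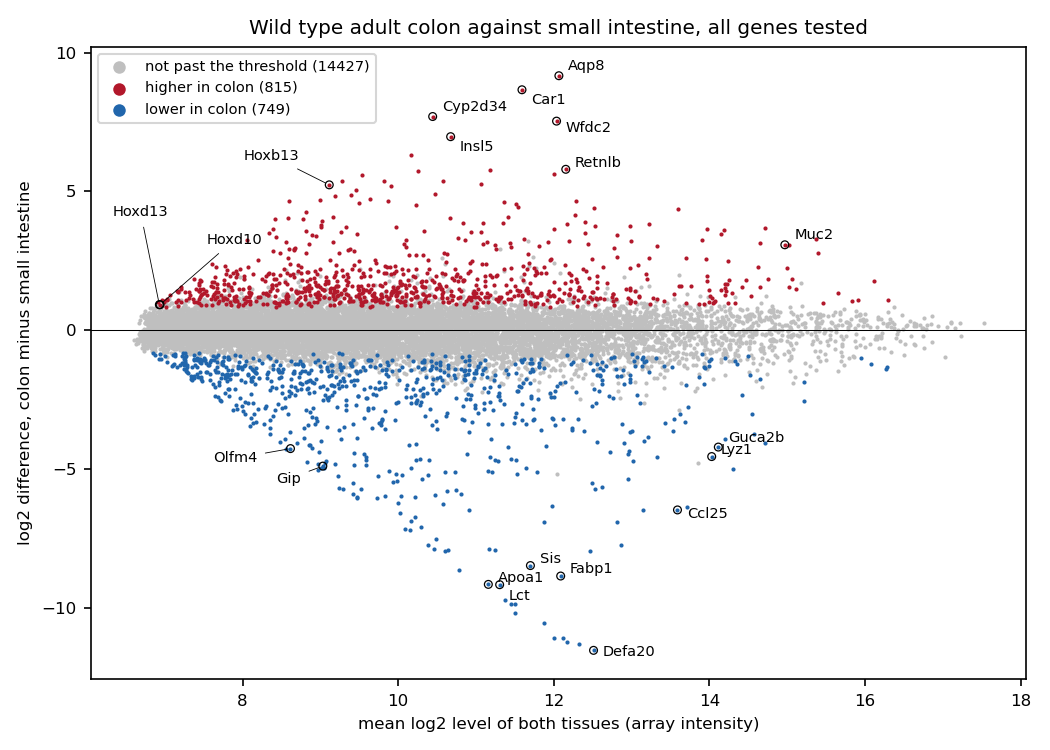
Difference in log2 level, colon minus small intestine, against the mean log2 level of both tissues for the 15991 genes tested. Red points (815) were higher and blue points (749) lower in colon past the threshold, grey points were not; circles mark genes named in the text, from Aqp8 at 9.17 to Defa20 at -11.54.

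The 5 genes taken as markers of the tissues lay on their sides. They were chosen with earlier results of these data known, so their direction is a description and no test. Car1, carbonic anhydrase 1, had log2 levels of 14.73, 16.89 and 16.15 in the colon pools, against 7.25 and 7.27 in the small intestine pools, a difference of 8.66 ± 0.59, adjusted p = 0.000423. Its level in colon pool 1 was 12.90 on the array that stood apart and 16.56 on the dye swap. Hoxd10 and Hoxd13, genes from the 5′ part of the HoxD cluster, were dim: Hoxd10 stood at 7.59, 7.41 and 7.19 in colon and Hoxd13 at 7.62, 7.43 and 7.11, while neither was well above background on any small intestine array. Hoxd10 was at least 1.88-fold higher in colon (adjusted p = 0.0457), and Hoxd13, at least 1.89-fold, missed the threshold (adjusted p = 0.0589; 0.0164 without colon pool 1). Apoa1, the main protein of high-density lipoprotein, was not above background on any colon array and stood at 15.65 and 15.84 in small intestine, which made it at least 566-fold lower in colon (adjusted p = 5.3e-06). Lyz1, the Paneth cell lysozyme, had 11.92, 11.43 and 11.89 in colon, against 16.28 and 16.33 in small intestine (-4.56 ± 0.23, adjusted p = 0.000138). The pools of both tissues were separate for each of the 5, as were those of 47.3% of all genes tested. Hoxd10, Hoxd13 and Apoa1 passed the filter only through the tissue where they are high. The probes of Car1, Apoa1 and Lyz1 lie on chromosome 3 (positions 14744230 to 14744289), chromosome 9 (positions 45980833 to 45980892) and chromosome 10 (positions 116692308 to 116692367) of build mm8.

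Among the 15 named genes with the largest differences upward in colon, transport and defence proteins of the colonic surface stood beside metabolic enzymes. Aqp8, a water channel of the apical membrane, led with 16.76, 16.43 and 16.75 in the colon pools, against 7.34 and 7.62 in the small intestine pools, 575-fold (9.17 ± 0.22, adjusted p = 7.07e-06; probe on chromosome 7, positions 123259070 to 123259129). Wfdc2, a secreted protein with protease inhibitor domains, followed after Car1 and Cyp2d34 with 15.87, 15.53 and 16.01 in colon, against 8.12 and 8.43 in small intestine (7.53 ± 0.24, adjusted p = 2.12e-05). Cyp2d34, a cytochrome P450, was not above background in small intestine and was at least 207-fold higher in colon, where it stood at 14.67, 13.97 and 14.24 (adjusted p = 2.85e-05). Hao2, a peroxisomal oxidase of hydroxy acids, had 13.62, 13.12 and 13.19 in colon and 7.0 and 7.02 in small intestine (6.30 ± 0.23, adjusted p = 3.76e-05). Lactoperoxidase, Lpo, an enzyme of antibacterial secretions, had 12.97, 12.70 and 11.87 in colon and 7.08 and 7.17 in small intestine (5.39 ± 0.35, adjusted p = 0.000332). Thbs4, a matrix thrombospondin, had 12.10, 13.65 and 14.02 in colon and 8.15 and 7.65 in small intestine (5.36 ± 0.57, adjusted p = 0.00259). Sval1 had 12.94, 14.50 and 14.74 in colon and 8.64 and 7.93 in small intestine (5.77 ± 0.56, adjusted p = 0.00189). Nxpe2, at 12.31, 11.60 and 12.01 in colon, was at least 41.9-fold higher (adjusted p = 0.00011). Cyp2d34 and Nxpe2 passed the filter through colon alone, so their direction was largely set by the filter. In the heat map the colon values of Car1, Retnlb, Best2, Sval1 and Thbs4 were lowest in colon pool 1, by more than 1 unit. As for Car1, the low values came from the array that stood apart. There Retnlb read 10.46, Best2 9.89, Sval1 10.73 and Thbs4 10.2, against 16.16, 13.91, 15.14 and 14 on the dye swap. Only genes whose colon and small intestine pools did not overlap could be chosen, so the separation of the tissues there is no result. Of the 15 named genes with the largest falls, 11 were alpha-defensins or defensin-related sequences and the other 4 were Lct, Apoa1, Fabp1 and Sis.

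**Figure D2:**
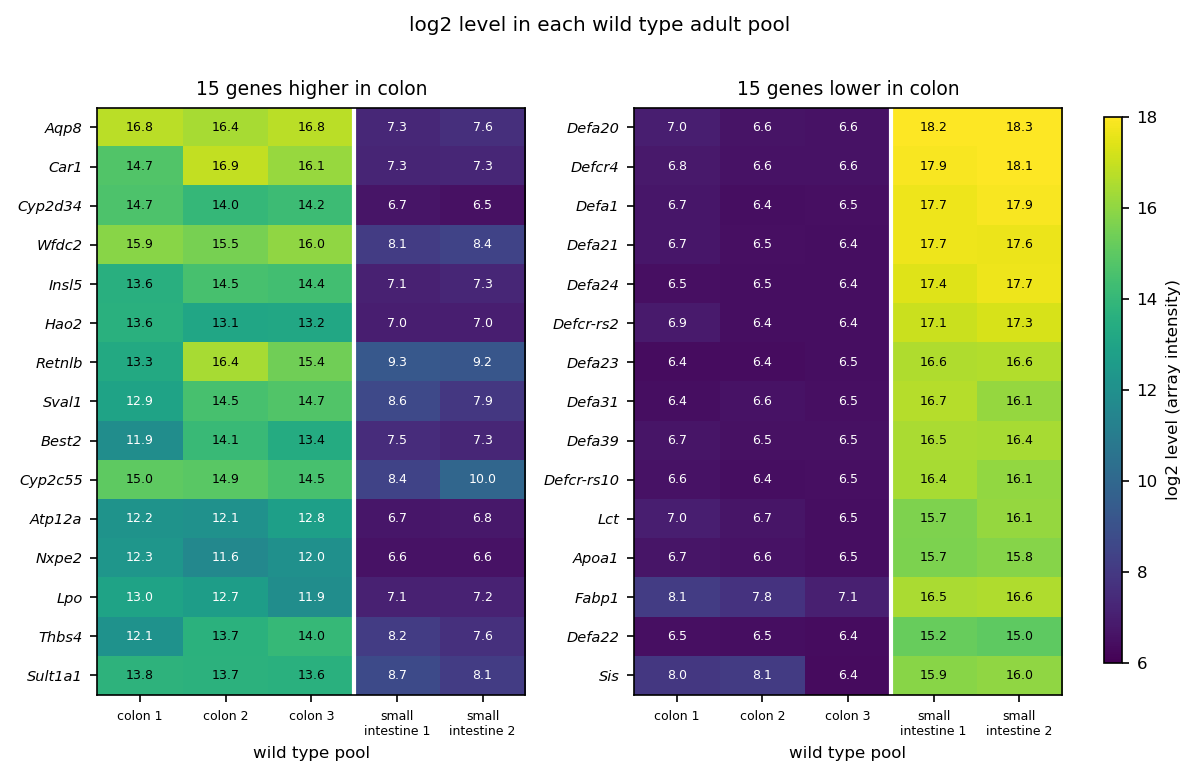
Log2 level of the 15 named genes with the largest difference upward (left) and downward (right) in colon, in each wild type pool; rows are genes, columns are pools with colon left of small intestine, and the numbers are the log2 levels. The genes were chosen among those past the threshold whose colon and small intestine pools did not overlap. Retnlb, Car1, Best2, Sval1 and Thbs4 are lower in colon pool 1 than in colon pools 2 and 3. Their values in colon pool 1 average low readings on the array that stood apart and higher readings on its dye swap.

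With all pools, the Hox genes higher in colon had paralog numbers of 7 and above. Of 39 Hox genes 22 were tested, 16 lay under the filter on dim probes and 1 had no probe. Of the 22, 7 were higher and 1 lower in colon (median difference 0.29, against 0.04 over all genes), and without colon pool 1 the numbers were 9 and 2. Hoxb13, which patterns the hindgut, had 10.15, 12.59 and 12.45 in the colon pools and was not above background on any small intestine array, at least 37-fold higher (log2 5.23 ± 0.73, adjusted p = 0.00777). In colon pool 1 it read 7.72 on the array that stood apart and 12.58 on the dye swap. Without that pool its difference was 6.02. Hoxa7 was measured on every array of both tissues, with 14.04, 13.44 and 13.56 in colon, against 9.20 and 8.90 in small intestine (4.63 ± 0.26, adjusted p = 0.000191). Hoxa10 (10.53, 10.23 and 10.54 in colon) and Hoxa11 (9.99, 9.48 and 9.57) were dark in small intestine and at least 15.8-fold and 9.24-fold higher in colon (adjusted p = 0.000139 and 0.000491). Hoxa13 was at least 4.89-fold higher (adjusted p = 0.00342). Hoxb9 had 8.69, 10.84 and 9.93 in colon, against 7.15 and 6.76 in small intestine (2.87 ± 0.59, adjusted p = 0.032). Hoxc6 went the other way, below background in colon and at 8.03 and 7.70 in small intestine, at least 2.32-fold lower (adjusted p = 0.0148). Hoxa10, Hoxa11, Hoxa13, Hoxb13 and Hoxd10 passed the filter through colon alone, and Hoxc6 through small intestine alone. The direction of these genes was thus largely set by the filter. The 8 tested genes with paralog numbers 2 to 5 had differences of -0.15 to 0.73 and did not pass. Without colon pool 1, Hoxb5 of this group passed as higher (0.54, adjusted p = 0.0444) and Hoxc9 as lower (-0.87, adjusted p = 0.0247). In the plot by paralog number, points past the threshold upward begin at Hoxa7 in cluster A and at Hoxb9 in cluster B.

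**Figure D3:**
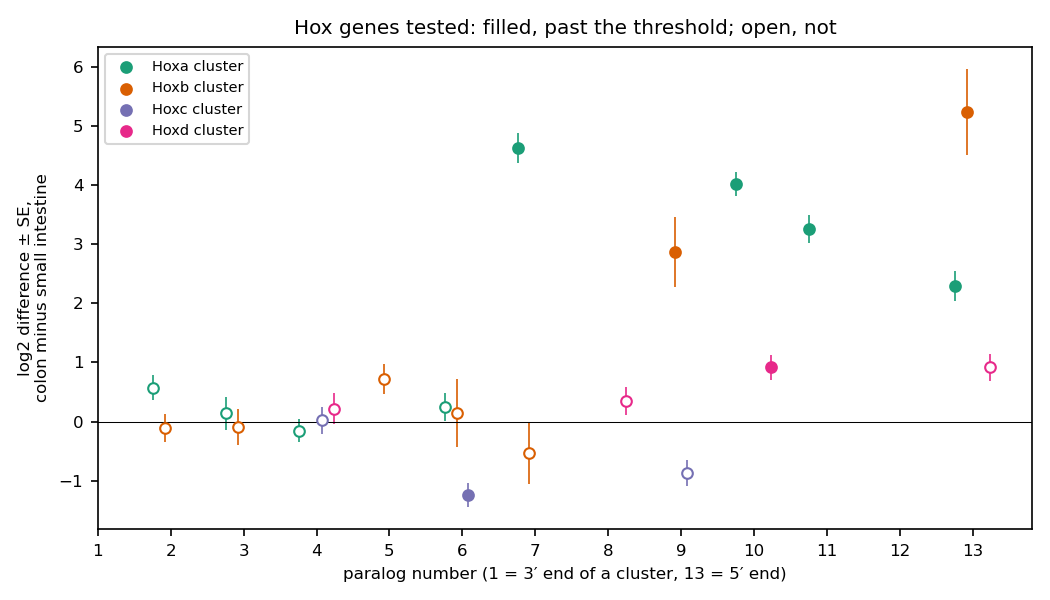
Log2 difference, colon minus small intestine, with its standard error (n = 3 and 2 pools), for the 22 Hox genes tested, by paralog number and coloured by cluster. Filled points passed the threshold, open points did not; the highest are Hoxb13 (5.23) and Hoxa7 (4.63), and Hoxc6 (-1.24) is the filled point below 0.

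Transcription factors of regional identity in the epithelium split. Of 32 tested, 6 were higher and 9 lower in colon, and 10 and 13 without colon pool 1. Foxa2, a forkhead factor of the endoderm, had 12.67, 12.96 and 13.38 in colon, against 9.92 and 9.83 in small intestine (3.13 ± 0.26, adjusted p = 0.000983). Its relatives Foxa1 (1.76) and Foxa3 (1.28) were also higher (adjusted p = 0.00344 and 0.0184), and Foxd2, not above background in small intestine, was at least 2.01-fold higher (adjusted p = 0.0418). Lower in colon was Creb3l3, a membrane-bound factor that controls apolipoprotein genes, at 8.28, 7.77 and 7.51 in colon, against 13.53 and 13.99 in small intestine (-5.91 ± 0.30, adjusted p = 0.000129). Onecut2 had 6.70, 6.55 and 6.50 in colon and 10.31 and 10.72 in small intestine (-3.93 ± 0.22, adjusted p = 0.000191). Gata5, a zinc-finger factor of the endoderm, had 6.56, 6.71 and 6.64 in colon and 9.38 and 9.91 in small intestine (-3.01 ± 0.23, adjusted p = 0.000697). Maf (-3.38), Tbx3 (-3.20), Hnf4g (-2.51), Nr1i3 (-1.75) and Pdx1 (-0.93) were lower too, with adjusted p from 0.000859 to 0.0376. Nr0b2, not above background in colon, was at least 1.69-fold lower (adjusted p = 0.0415).

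The 5 factors that follow, known from both organs or from the upper gut, did not pass. Cdx2, which maintains intestinal fate, had 11.25, 14.46 and 13.42 in the colon pools, against 14.17 and 13.68 in the small intestine pools (-0.89 ± 0.87, adjusted p = 0.585; 0.01 without colon pool 1, adjusted p = 0.99). Its low value in colon pool 1 came from 8.21 on the array that stood apart, against 14.30 on the dye swap. Cdx1 (0.64) passed as higher without colon pool 1 (1.26, adjusted p = 0.0166). Hnf4a, a nuclear receptor of enterocytes, stood at 11.57, 11.88 and 11.77 in colon and 11.92 and 12.30 in small intestine (-0.37 ± 0.22, adjusted p = 0.382). Gata4, which marks the proximal small intestine, was dim in both tissues, with 6.92, 6.74 and 6.80 in colon and 6.97 and 7.40 in small intestine (-0.37 ± 0.22, adjusted p = 0.373). Gata6 had a difference of -1.33 ± 0.47, adjusted p = 0.151, which passed without colon pool 1 (-0.86, adjusted p = 0.0117).

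Genes of fat absorption were lower in colon as a group. Of 35 tested, 25 were lower and 2 higher (median -3.10), and 26 and 3 without colon pool 1. In bulk RNA, fewer cells of a type and less RNA per cell cannot be told apart, here and below. Fabp1, the fatty acid binding protein of enterocytes and liver, had 8.13, 7.76 and 7.08 in the colon pools, against 16.48 and 16.56 in the small intestine pools, 465-fold lower (-8.86 ± 0.33, adjusted p = 4.04e-05). Npc1l1, the cholesterol uptake protein of the brush border, had 6.92, 6.66 and 6.62 in colon and 14.24 and 14.25 in small intestine (-7.52 ± 0.20, adjusted p = 1.1e-05). Apoa4 (-7.76 ± 0.26, adjusted p = 2.54e-05), Apoc3 (-7.18 ± 0.19, adjusted p = 1.03e-05) and Apob, the core protein of chylomicrons (-4.68 ± 0.25, adjusted p = 0.000167), were lower beside Apoa1. The Apob value comes from its brightest probe; the other 2 probes that passed the filter gave -1.45 and -4.57. Mttp, which loads lipid onto Apob, was below background in colon and at least 52.4-fold lower (adjusted p = 8.48e-05). Mogat2, which rebuilds triglyceride from absorbed monoglyceride, kept a clear signal in colon, with 9.74, 9.28 and 9.06 there, against 16.20 and 16.32 in small intestine (-6.90 ± 0.26, adjusted p = 4.04e-05). Fabp2, the intestinal fatty acid binding protein, was bright in both tissues, with 15.16, 15.78 and 15.78 in colon and 16.91 and 17.05 in small intestine (-1.41 ± 0.26, adjusted p = 0.0227; -2.77 at its other probe). The 2 genes higher in colon were Scd2, a fatty acid desaturase (14.04, 14.78 and 14.77 in colon, against 11.89 and 11.94 in small intestine; 2.61 ± 0.28, adjusted p = 0.00291), and Dhrs9, a retinol dehydrogenase (1.92 ± 0.29, adjusted p = 0.0112).

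Brush border hydrolases were lower as well, 18 of 24 tested with 0 higher by limma's test, also at an unadjusted p under 0.05 (median -4.48), and 20 without colon pool 1. Lct, the lactase of suckling mammals, had 7.03, 6.66 and 6.46 in colon, where 2 of 6 arrays were above background, against 15.67 and 16.12 in small intestine (-9.17 ± 0.26, adjusted p = 1.37e-05). Sis, sucrase-isomaltase, had 7.96, 8.06 and 6.35 in colon and 15.87 and 16.02 in small intestine (-8.48 ± 0.53, adjusted p = 0.000281), with colon pool 3 lowest. The trehalase Treh stood at 6.77, 6.70 and 6.72 in colon and 13.06 and 13.57 in small intestine (-6.58 ± 0.23, adjusted p = 2.92e-05). Peptidases followed, with Enpep at -6.92, Anpep, aminopeptidase N, at -6.48 and Dpp4 at -4.68 (adjusted p from 9.92e-05 to 0.0015). Tmprss15, the enterokinase that activates trypsin, was at least 18.3-fold lower at the probe used (adjusted p = 0.000217), while its other probe gave -0.62. Alpi, intestinal alkaline phosphatase, had 7.25, 8.35 and 8.04 in colon and 12.14 and 13.01 in small intestine (-4.70 ± 0.41, adjusted p = 0.00118; -1.78 at its other probe). The brush border was not uniformly lower: Mep1a, a subunit of the metalloprotease meprin, stood at 13.25, 12.95 and 13.20 in colon and 13.03 and 13.04 in small intestine (0.10 ± 0.20, adjusted p = 0.804). The other subunit, Mep1b, was lower, with 11.15, 11.33 and 11.18 in colon and 13.58 and 14.13 in small intestine (-2.64 ± 0.24, adjusted p = 0.00135). Mgam, maltase-glucoamylase, stayed bright in colon, with 14.11, 13.79 and 13.96 there, against 16.25 and 16.74 in small intestine (-2.54 ± 0.24, adjusted p = 0.00161).

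The 4 named enterocyte genes with the largest falls and the gene with the largest rise show how different the upstream sequence of such genes can be. The 250 bases before the start of each, from RefSeq's table for GRCm38.p6, are given 5′ to 3′ on the strand of the gene, with capitals for letters of 4 motif searches on both strands: for GATA factors the letters AGATAA or the letters TGATAA, for HNF1 the letters GTTAAT, for CDX factors the letters TTTATG, and for HNF4 the letters CAAAGTC.
Lct, chr1:128328319-128328568 (-): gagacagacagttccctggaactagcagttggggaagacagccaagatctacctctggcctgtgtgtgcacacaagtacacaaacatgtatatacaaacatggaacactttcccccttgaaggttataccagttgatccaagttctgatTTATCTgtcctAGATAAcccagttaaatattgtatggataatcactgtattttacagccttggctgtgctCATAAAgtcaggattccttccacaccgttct
Apoa1, chr9:46228380-46228629 (+): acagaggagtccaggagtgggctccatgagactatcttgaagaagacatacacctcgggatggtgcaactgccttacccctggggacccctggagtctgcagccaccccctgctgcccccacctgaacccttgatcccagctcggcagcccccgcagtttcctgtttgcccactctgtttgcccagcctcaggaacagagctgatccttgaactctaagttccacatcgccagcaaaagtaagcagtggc
Fabp1, chr6:71199629-71199878 (+): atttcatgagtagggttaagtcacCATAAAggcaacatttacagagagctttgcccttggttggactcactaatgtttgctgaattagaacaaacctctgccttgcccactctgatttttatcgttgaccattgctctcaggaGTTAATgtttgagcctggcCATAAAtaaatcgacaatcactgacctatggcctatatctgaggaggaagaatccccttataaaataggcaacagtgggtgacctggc
Sis, chr3:72967864-72968113 (-): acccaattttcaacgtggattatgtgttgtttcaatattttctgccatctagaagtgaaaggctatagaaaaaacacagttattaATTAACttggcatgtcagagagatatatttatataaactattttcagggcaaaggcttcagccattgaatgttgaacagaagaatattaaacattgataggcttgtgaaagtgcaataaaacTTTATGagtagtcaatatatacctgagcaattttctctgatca
Aqp8, chr7:123462044-123462293 (+): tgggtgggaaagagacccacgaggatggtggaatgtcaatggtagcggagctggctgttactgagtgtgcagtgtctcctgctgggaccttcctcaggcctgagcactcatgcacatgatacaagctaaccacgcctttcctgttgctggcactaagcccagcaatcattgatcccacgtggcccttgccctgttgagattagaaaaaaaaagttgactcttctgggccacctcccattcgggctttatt
Lct held 2 GATA matches and 1 CDX match, Sis held 1 HNF1 and 1 CDX match, and Fabp1 held 1 HNF1 and 2 CDX matches. Apoa1 and Aqp8 held no match, which says only that these letters are not in this window. Over the genes with a single promoter in the table, GATA letters stood in 16.9% of 438 genes lower in colon and 7.39% of 460 genes higher in colon, against 9.99% of 8716 genes tested and 17.4% of all 22862. For HNF4 letters the shares were 6.85%, 3.7%, 3.6% and 3.78% in the same order, for HNF1 letters 7.31%, 4.13%, 4.3% and 6.68%, and for CDX letters 10.3%, 8.48%, 6.76% and 11.5%. The letters TATAAA, searched too but not marked above, stood in 14.8%, 10.9%, 8.08% and 13.6%. These shares are descriptions with no test, and matches are letters, not sites shown to be bound.

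Transporters of sugars, amino acids, iron and vitamins were lower in colon for 22 of 34 tested and higher for 1 (median -3.30), and for 29 and 2 without colon pool 1. Slc2a2, the basolateral glucose transporter, was below background in colon and stood at 12.20 and 12.79 in small intestine, at least 64.3-fold lower (adjusted p = 5.06e-05). Slc5a1, the sodium-glucose cotransporter of the apical membrane, had 10.65, 10.62 and 10.45 in colon and 13.87 and 14.53 in small intestine (-3.63 ± 0.26, adjusted p = 0.000469). Slc2a5, which takes up fructose, had 9.36, 9.13 and 8.33 in colon and 13.73 and 14.49 in small intestine (-5.17 ± 0.39, adjusted p = 0.000616). Slc6a19, carrier of neutral amino acids, had 6.81, 6.57 and 6.77 in colon and 12.58 and 12.93 in small intestine (-6.04 ± 0.22, adjusted p = 3.57e-05). Slc15a1, the peptide transporter, had 7.26, 8.19 and 8.41 in colon and 9.63 and 10.04 in small intestine (-1.88 ± 0.38, adjusted p = 0.0287). Cubn, a receptor for vitamin B12 bound to its carrier, had 7.71, 8.91 and 6.95 in colon and 13.64 and 13.61 in small intestine (-5.77 ± 0.54, adjusted p = 0.00161). The iron genes did not pass with all pools: Slc11a2 differed by -1.11, Cybrd1 by -0.66 and the exporter Slc40a1 by 1.07 (adjusted p of 0.0803 to 0.201). Without colon pool 1, Slc11a2 (-0.85, adjusted p = 0.0133) and Cybrd1 (-0.84, adjusted p = 0.0207) passed as lower and Slc40a1 as higher (1.10, adjusted p = 0.047). The 1 gene higher in colon was Trpv6, an apical calcium channel, with 11.04, 10.60 and 10.59 in colon, against 7.33 and 7.82 in small intestine (3.17 ± 0.26, adjusted p = 0.000917).

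Bile acid genes of the ileum were lower for 6 of 11 tested and higher for 1, and for 8 and 1 without colon pool 1. Slc51a, one subunit of the basolateral exporter of bile acids, had 11.05, 13.79 and 10.55 in the colon pools, against 16.76 and 16.84 in the small intestine pools (-5.0 ± 0.91, adjusted p = 0.0213). Its partner Slc51b had 11.42, 11.46 and 10.64 in colon and 13.64 and 13.17 in small intestine (-2.23 ± 0.32, adjusted p = 0.00897). The cytosolic binding protein Fabp6 had 6.96, 6.61 and 6.63 in colon and 10.03 and 9.94 in small intestine (-3.25 ± 0.21, adjusted p = 0.000333). Slc10a2, the apical uptake carrier, had 9.48, 9.91 and 7.89 in colon and 11.79 and 11.18 in small intestine and missed the threshold (-2.39 ± 0.60, adjusted p = 0.0592; -2.58, adjusted p = 0.0329 without colon pool 1). Slc51a was highest in colon pool 2 and Slc10a2 lowest in colon pool 3. The hormone Fgf15 was below background in colon and at least 2.28-fold lower (adjusted p = 0.0184). The export pump Abcc2 had 6.82, 6.75 and 6.76 in colon and 10.61 and 11.24 in small intestine (-4.15 ± 0.24, adjusted p = 0.000238). Abcc3, a basolateral export pump, was the 1 gene higher in colon, with 13.36, 13.14 and 13.16 there, against 10.96 and 11.39 in small intestine (2.04 ± 0.22, adjusted p = 0.00291).

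By number, not by share, genes of ion and water transport had the most members higher in colon of all lists. Of 41 tested, 23 were higher and 6 lower (median 1.17), and 26 and 6 without colon pool 1. Beside Aqp8, Aqp4, a basolateral water channel, had 12.56, 12.51 and 13 in colon, against 8.69 and 8.61 in small intestine (4.04 ± 0.23, adjusted p = 0.000214). Water channels did not move together: Aqp3, which also carries glycerol, was lower, with 7.76, 7.38 and 7.01 in colon, against 12.16 and 12.96 in small intestine (-5.18 ± 0.34, adjusted p = 0.000333), as were Aqp11 (-2.58) and Aqp1 (-1.19), with adjusted p of 0.00219 and 0.0337. Aqp7, not above background in colon, was at least 5.44-fold lower (adjusted p = 0.000801). The 3 subunits of the epithelial sodium channel were higher, Scnn1a at 12.99, 12.90 and 12.61 in colon, against 9.35 and 9.22 in small intestine (3.55 ± 0.21, adjusted p = 0.000253), and Scnn1b and Scnn1g, dark in small intestine, at least 2.59-fold and 2.6-fold (adjusted p = 0.012 and 0.00879). Atp12a, the colonic proton-potassium pump, had 12.16, 12.06 and 12.75 in colon and 6.75 and 6.76 in small intestine (5.57 ± 0.26, adjusted p = 0.000105).

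Among the carbonic anhydrases, which make bicarbonate, Car2 and Car4 were higher in colon beside Car1 and Car13 was lower (-1.55 ± 0.23, adjusted p = 0.00983). Of the anion exchangers, one member rose and another fell. Car2 had 14.47, 14.84 and 14.84 in colon, against 10.18 and 10.45 in small intestine (4.40 ± 0.22, adjusted p = 0.000137). Car4 had 13.31, 13.02 and 13.38 in colon and 10.61 and 10.74 in small intestine (2.56 ± 0.21, adjusted p = 0.000933). Slc26a3, the chloride-bicarbonate exchanger of the colonic surface, had 13.96, 14.22 and 14.21 in colon and 11.72 and 11.28 in small intestine (2.63 ± 0.23, adjusted p = 0.00118; 0.60 and 3.11 at its other probes). Its relative Slc26a6, the exchanger for chloride and oxalate, went the other way with 7.50, 7.03 and 7.30 in colon and 12.51 and 12.88 in small intestine (-5.42 ± 0.24, adjusted p = 8.32e-05). The sodium-proton exchanger Slc9a3 differed by 1.12 ± 0.25, adjusted p = 0.0404, and Slc20a1, a phosphate carrier, by 3.64 ± 0.25, adjusted p = 0.000398 at the probe used and by 0.12 at its other probe. Best2, a bicarbonate channel of colonic goblet cells, had 11.90, 14.11 and 13.36 in colon and 7.50 and 7.30 in small intestine (5.72 ± 0.61, adjusted p = 0.00259).

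Of 26 genes of fatty acid oxidation and ketone synthesis, 1 was higher and 4 were lower, and 3 and 9 without colon pool 1. Over all genes 5.1% were higher and 4.68% lower, and 13.1% and 11.3% without colon pool 1. Pparg, a nuclear receptor of colonocytes, had 11.94, 12.34 and 12.14 in colon and 9.40 and 10.03 in small intestine (2.42 ± 0.26, adjusted p = 0.00292). The genes lower in colon were Cyp4b1 (-4.11), Angptl4, an inhibitor of lipoprotein lipase (-2.52), Cyp4a10 (-2.34) and Acox2 (-1.17), with adjusted p from 0.00287 to 0.0485.

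Paneth cell genes included the largest differences of all. Of 31 in the list 22 were tested, 8 had no probe and 1 lay under the filter; 13 of the 22 were lower and 4 higher in colon (median -4.14), and 13 and 5 without colon pool 1. Defa20, an alpha-defensin, had 7.02, 6.62 and 6.58 in the colon pools, where 3 of 6 arrays were above background, against 18.23 and 18.34 in the small intestine pools, 2981-fold lower (-11.54 ± 0.22, adjusted p = 3.32e-06). Defa21, Defa24 and Defa23 were not above background on any colon array and were at least 2210-fold, 2055-fold and 1078-fold lower (adjusted p = 3.32e-06 each). These 3 passed the filter through small intestine alone, so their direction was largely set by the filter. Defa3 had a signal in every colon pool at the probe used, 9.17, 8.76 and 9.01 in colon, against 16.71 and 16.76 in small intestine (-7.76 ± 0.21, adjusted p = 1.18e-05), while its other probe gave -11.25. The defensins are close paralogs, and a probe may read several of them. Mmp7, which cuts the defensin precursors to their active form in mice, had 9.30, 8.13 and 8.48 in colon and 13.43 and 12.81 in small intestine (-4.48 ± 0.39, adjusted p = 0.00124). Itln1, an intelectin, had 9.73, 11.65 and 9.40 in colon and 15.64 and 15.64 in small intestine (-5.38 ± 0.65, adjusted p = 0.00436), with colon pool 2 highest.

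Not every gene on the Paneth list was lower. Nupr1, a stress-induced nuclear protein, had 15.89, 14.98 and 15.70 in colon, against 12.56 and 12.01 in small intestine (3.24 ± 0.34, adjusted p = 0.00241). Mptx1, a mucosal pentraxin, had 15.94, 15.87 and 15.73 in colon and 14.58 and 14.18 in small intestine (1.47 ± 0.22, adjusted p = 0.00983). Kit, a receptor of mast and interstitial cells that also marks secretory crypt cells of the colon, was higher at 1.30, and Copz2, a vesicle coat subunit, at 1.32 (adjusted p = 0.0105 and 0.0211). Ang4, an antimicrobial ribonuclease, was bright in both tissues, with 13.71, 14.84 and 12.64 in colon and 14.68 and 15 in small intestine (-1.11 ± 0.60, adjusted p = 0.329). Lyz2, the lysozyme of macrophages and a paralog of Lyz1, had 13.45, 14.10 and 14.35 in colon and 15.50 and 14.79 in small intestine and missed the threshold (-1.18 ± 0.35, adjusted p = 0.101; -0.92, adjusted p = 0.048 without colon pool 1).

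Goblet cell genes were higher in colon for 19 of 33 tested and lower for 0 by limma's test, also at an unadjusted p under 0.05 (median 1.19), and for 24 and 0 without colon pool 1. Muc2, the gel-forming mucin, had 16.22, 16.48 and 16.83 in the colon pools, against 13.33 and 13.53 in the small intestine pools (3.07 ± 0.25, adjusted p = 0.000835; 1.58, 2.63 and 1.60 at its other probes). Spdef, whose loss the series studied, was higher too, with 11.74, 11.58 and 11.52 in colon, against 9.54 and 9.65 in small intestine (2.02 ± 0.19, adjusted p = 0.00177). Agr2, the disulfide isomerase that folds mucin, had 17.06, 16.75 and 17.16 in colon and 15.36 and 15.09 in small intestine (1.76 ± 0.23, adjusted p = 0.00554). Retnlb, a secreted bactericidal protein, had 13.31, 16.42 and 15.42 in colon and 9.29 and 9.23 in small intestine (5.79 ± 0.84, adjusted p = 0.0089). Klk1, a kallikrein protease, had 14.07, 14.94 and 14.61 in colon and 11.08 and 11.11 in small intestine (3.44 ± 0.29, adjusted p = 0.00106). The stress sensor Ern2 (2.12 ± 0.21, adjusted p = 0.00203) and the protease Hgfac (3.03 ± 0.30, adjusted p = 0.00193) were among the others. Of the goblet products, Tff3, Clca1 and Zg16 did not pass. Tff3, a trefoil peptide, had 16.41, 15.92 and 16.16 in colon and 16.55 and 16.01 in small intestine (-0.12 ± 0.26, adjusted p = 0.819). Clca1 had 16.69, 17.22 and 16.36 in colon and 16.14 and 16.85 in small intestine (0.26 ± 0.34, adjusted p = 0.693). Zg16 had 17.71, 17.55 and 17.72 in colon and 17.31 and 17.48 in small intestine (0.26 ± 0.20, adjusted p = 0.47).

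Enzymes that build mucin glycans were higher in colon for 14 of 43 tested and lower for 4 (median 0.69), and for 22 and 5 without colon pool 1. St6galnac6, a sialyltransferase, had 11.43, 13.23 and 12.83 in colon, against 7.36 and 7.24 in small intestine (5.19 ± 0.52, adjusted p = 0.00209; 3.02 at its other probe). B3galt5 had 15.93, 15.94 and 15.82 in colon and 13.28 and 11.56 in small intestine (3.48 ± 0.48, adjusted p = 0.00742), and B3gnt5 (3.17), Gcnt1, which branches core structures (2.79), St3gal3 (2.21) and Galnt12, which starts O-glycans (1.84), were higher with adjusted p from 0.00143 to 0.00253. Other probes gave 1.08 and 1.03 for Gcnt1 and 1.10 for St3gal3. The 4 lower were the sulfotransferase Gal3st2 (-1.86), St3gal4 (-1.76), Galnt1 (-1.14) and B4galnt1 (-1.11), with adjusted p from 0.0175 to 0.0406. Among 19 mucins and mucus proteins 4 were higher and 2 lower, and 7 and 2 without colon pool 1. Muc4, a membrane mucin, had 10.50, 10.27 and 10.64 in colon and 8.49 and 8.63 in small intestine (1.91 ± 0.21, adjusted p = 0.00302). Tgm3, a transglutaminase that crosslinks mucus, had 10.62, 11.20 and 10.98 in colon and 6.50 and 6.88 in small intestine (4.24 ± 0.26, adjusted p = 0.000266). Clca4a (-1.94 ± 0.28, adjusted p = 0.00888) and Clca4b (-2.74 ± 0.22, adjusted p = 0.000771) were lower in colon. Muc13 (0.20 ± 0.22, adjusted p = 0.641) and Muc3 (-0.22 ± 0.55, adjusted p = 0.838) did not pass, and the probes of Muc3 differed in sign.

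Gut hormones differed between the organs in both directions, with 6 of 33 genes higher and 4 lower in colon, and 8 and 8 without colon pool 1. With all pools 30.3% passed in either direction, against 9.78% of all genes. Insl5, an insulin-like peptide of distal L cells, had 13.55, 14.53 and 14.39 in the colon pools, against 7.11 and 7.27 in the small intestine pools, 125-fold (6.97 ± 0.33, adjusted p = 0.000105). Pyy, peptide YY, had 15.21, 14.62 and 14.68 in colon and 12.09 and 11.53 in small intestine (3.02 ± 0.29, adjusted p = 0.00166). Gcg, which encodes the GLP peptides of the same cells, had 12.39, 12.12 and 11.80 in colon and 11.03 and 10.74 in small intestine (1.22 ± 0.25, adjusted p = 0.0309). The fatty acid receptor Ffar4 (2.02 ± 0.26, adjusted p = 0.00549), Cpn1 (1.65 ± 0.25, adjusted p = 0.0104) and Cpe, a prohormone-trimming peptidase (1.08 ± 0.22, adjusted p = 0.0324), were the other 3 higher. Hormones of the upper gut were lower: Gip, the incretin of K cells, had 6.58, 6.63 and 6.54 in colon and 11.29 and 11.68 in small intestine (-4.90 ± 0.21, adjusted p = 7.15e-05). Cck, which empties the gallbladder, had 7.58, 8.64 and 7.97 in colon and 11.59 and 11.62 in small intestine (-3.55 ± 0.33, adjusted p = 0.00161). Ghrl, ghrelin, had 7.56, 6.90 and 7.01 in colon and 9.72 and 10.17 in small intestine (-2.79 ± 0.28, adjusted p = 0.00216). Sst, somatostatin, was lower by a smaller margin (-1.33 ± 0.22, adjusted p = 0.0155). Sct, secretin (-2.87 ± 0.82, adjusted p = 0.0905), and Nts, neurotensin (-1.74 ± 0.47, adjusted p = 0.0741), passed as lower only when colon pool 1 was left out (-2.05 and -1.96, adjusted p = 0.0166 and 0.028). Chga, a granin, had a difference of -0.12 ± 0.24, adjusted p = 0.799, and Tph1, which makes serotonin, of 0.37 ± 0.34, adjusted p = 0.563; neither passed.

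The paired peptides guanylin and uroguanylin, which open chloride secretion through the receptor Gucy2c, separated. Guca2b, uroguanylin, had 12.54, 11.73 and 11.74 in colon, against 16.31 and 16.13 in small intestine (-4.21 ± 0.30, adjusted p = 0.000511). Guca2a, guanylin, had 13.94, 17.15 and 16.58 in colon and 15.79 and 15.43 in small intestine and did not pass (0.28 ± 0.90, adjusted p = 0.878). Without colon pool 1 it was higher in colon by 1.26 (adjusted p = 0.0134); in colon pool 1 it read 10.45 on the array that stood apart and 17.43 on the dye swap. Gucy2c had 10.20, 12.14 and 12.03 in colon and 11.83 and 12.51 in small intestine (-0.72 ± 0.61, adjusted p = 0.532), and the kinase Prkg2, which acts downstream, was lower in colon (-2.02 ± 0.29, adjusted p = 0.00908). That made 0 of 4 higher by limma's test, also at an unadjusted p under 0.05, and 2 lower, and 1 and 2 without colon pool 1.

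Defence proteins of the epithelium were higher in colon for 8 of 32 tested and lower for 3, and for 13 and 7 without colon pool 1. The serum amyloids Saa1 (16.56, 16.48 and 16.64 in colon, against 13.45 and 13.51 in small intestine; 3.08 ± 0.19, adjusted p = 0.00027) and Saa3 (14.20, 13.92 and 13.83 in colon, against 10.91 and 10.89 in small intestine; 3.08 ± 0.21, adjusted p = 0.000401) were higher, as was Saa2 (2.79 ± 0.19, adjusted p = 0.000392). Probes of Saa1 and Saa2, close paralogs, may share signal. Toll-like receptors Tlr2 (2.07 ± 0.21, adjusted p = 0.00213) and Tlr4 (1.96 ± 0.23, adjusted p = 0.00364) were higher too. The C-type lectin Reg3g was lower, with 11.64, 13.67 and 12.72 in colon and 16.60 and 16.88 in small intestine (-4.06 ± 0.56, adjusted p = 0.00736). So was its relative Reg3b, with 15.58, 15.88 and 15.44 in colon and 16.80 and 17.09 in small intestine (-1.31 ± 0.23, adjusted p = 0.018). Reg1 and Reg3a, also made by the pancreas, varied between colon pools, Reg1 with 11.98, 7.25 and 15.15 in colon and 16.07 and 16.42 in small intestine (-4.79 ± 2.05, adjusted p = 0.225). Reg3a had 9.32, 7.0 and 12.05 in colon and 14.73 and 14.52 in small intestine (-5.17 ± 1.31, adjusted p = 0.0623). In colon pool 1 the array that stood apart read 9.38 for Reg1 and 7.01 for Reg3a, against 14.58 and 11.64 on the dye swap. Both were lowest in colon pool 2, the pool in which pancreas enzymes were lowest; their part in these values was not tested.

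In the crypt, stem cell genes and Wnt targets gave 4 of 37 higher and 3 lower, and 9 and 9 without colon pool 1. The share past the threshold with all pools was 18.9%, against 9.78% of all genes. Olfm4, a marker of small intestinal stem cells, was below background on every colon array and stood at 10.73 and 10.77 in small intestine, at least 18.5-fold lower in colon (adjusted p = 7.71e-05). Lgr5, the stem cell receptor of both organs, had 7.91, 7.78 and 7.89 in colon and 8.49 and 8.19 in small intestine and did not pass (-0.48 ± 0.20, adjusted p = 0.216), and neither did Ascl2 (-0.20 ± 0.25, adjusted p = 0.674). Wnt3, a signal that Paneth cells send to stem cells, was at least 3.37-fold lower (adjusted p = 0.00453). Sp5, a Wnt target, had 7.04, 6.69 and 6.58 in colon and 10.28 and 10.60 in small intestine (-3.67 ± 0.24, adjusted p = 0.000321). Cd44 (1.34 ± 0.24, adjusted p = 0.0179), Lrig1 (0.94 ± 0.21, adjusted p = 0.0448), Slc12a2 (1.14 ± 0.19, adjusted p = 0.0151) and Aqp4 were the 4 higher. Of 39 cell cycle genes 0 passed limma's test with all pools (5 at an unadjusted p under 0.05), while 37 were negative on the slide of pair 2. In KO pools 22 were negative and 17 positive. Without colon pool 1, 7 were lower and 1 higher in wild type pools. Foxm1, a mitotic regulator, had 7.66, 8.11 and 8.03 in colon and 8.89 and 8.79 in small intestine (-0.91 ± 0.22, adjusted p = 0.0562; -0.77, adjusted p = 0.00979 without colon pool 1). Mki67, a marker of cycling cells, had 12.90, 12.44 and 13.01 in colon and 12.40 and 12.48 in small intestine (0.34 ± 0.24, adjusted p = 0.447). None of 20 tuft cell genes passed limma's test with all pools (4 at an unadjusted p under 0.05; 1 higher and 2 lower without colon pool 1). The marker Dclk1 differed by 0.13 ± 0.31, adjusted p = 0.824 and the channel Trpm5 by -0.81 ± 0.27, adjusted p = 0.137.

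Enzymes of foreign-compound metabolism exchanged members between the organs. Of 57 tested, 19 were lower and 8 higher in colon, and 22 and 12 without colon pool 1. Adh6a, an alcohol dehydrogenase, had 6.90, 6.62 and 6.54 in colon, against 14.43 and 14.76 in small intestine (-7.91 ± 0.23, adjusted p = 1.37e-05), while its other probe gave -0.48. Cyp3a11, the main drug-oxidising cytochrome of the family, had 6.73, 7.02 and 6.79 in colon and 12.10 and 13.54 in small intestine (-5.97 ± 0.42, adjusted p = 0.000464). Cyp3a25 and Ugt2a3 were below background in colon and at least 60.4-fold and 50.3-fold lower (adjusted p = 5.44e-05 and 3.59e-05). On the colon side Cyp2c55 had 15.01, 14.93 and 14.53 in colon and 8.42 and 9.97 in small intestine (5.62 ± 0.46, adjusted p = 0.000889). The sulfotransferase Sult1a1 had 13.78, 13.71 and 13.61 in colon and 8.71 and 8.14 in small intestine (5.28 ± 0.24, adjusted p = 8.48e-05), beside Cyp2d34. The efflux pump Abcb1a did not pass with all pools (1.06 ± 0.31, adjusted p = 0.0911) and was higher without colon pool 1 (1.18, adjusted p = 0.03).

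Tight junction and structural genes gave a few large differences. Cldn8, a barrier claudin of the distal gut, had 11.35, 11.71 and 12.27 in colon, against 7.25 and 7.17 in small intestine (4.57 ± 0.30, adjusted p = 0.000356), and Cldn23 was higher at 1.30 ± 0.27, adjusted p = 0.0343. Cldn15, which forms the sodium pore of the small intestine, had 11.55, 11.50 and 11.38 in colon and 13.62 and 13.73 in small intestine (-2.20 ± 0.19, adjusted p = 0.00118). These were the 3 of 13 claudins to pass, also without colon pool 1; the pore claudin Cldn2 had a difference of -1.04 ± 0.56, adjusted p = 0.325 and the widely expressed Cldn7 of -0.20 ± 0.19, adjusted p = 0.578. Gasdermins Gsdmc2 (12.85, 13.42 and 11.87 in colon, against 9.60 and 9.99 in small intestine; 2.92 ± 0.45, adjusted p = 0.0118) and Gsdmc3 (14.27, 14.50 and 13.48 in colon, against 10.23 and 10.32 in small intestine; 3.81 ± 0.33, adjusted p = 0.00118), close paralogs, were higher in colon, and Gsdmd was lower (-1.96 ± 0.43, adjusted p = 0.0398). Anxa8 (4.66 ± 0.39, adjusted p = 0.00104) rose and Anxa13, an annexin of the enterocyte membrane (-3.63 ± 0.25, adjusted p = 0.000426), fell. In all, 6 of 20 gasdermin, keratin and annexin genes were higher and 2 lower, and 10 and 2 without colon pool 1. The keratins Krt19 (1.05 ± 0.21, adjusted p = 0.0288) and Krt18 (1.09 ± 0.23, adjusted p = 0.0327) were higher, and Krt20 did not pass (-0.20 ± 0.18, adjusted p = 0.56).

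**Figure D4:**
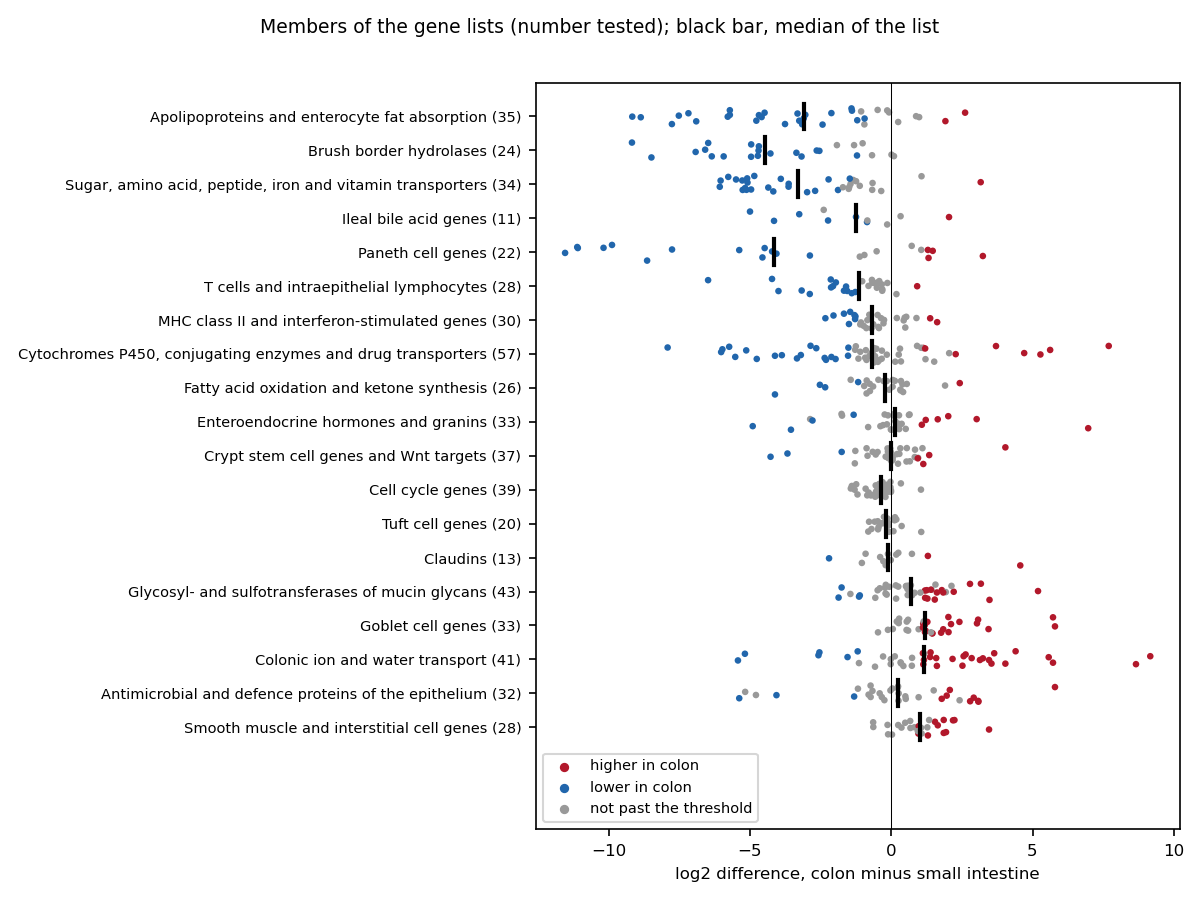
Log2 difference, colon minus small intestine, of each tested member of 19 gene lists, with the number tested behind the name of the list. Red points were higher and blue points lower in colon past the threshold, grey points were not, and the black bar is the median of the list; brush border hydrolases sit lowest (-4.48) and goblet cell genes highest (1.19).

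Of 28 genes of T cells and intraepithelial lymphocytes, 14 were lower and 1 higher (median -1.15), and 22 and 1 without colon pool 1. Ccl25, the chemokine by which small intestinal enterocytes attract T cells, had 10.64, 10.65 and 9.75 in colon, against 16.88 and 16.77 in small intestine (-6.48 ± 0.32, adjusted p = 0.000129). Gzma, a granzyme of killer cells, had 7.26, 7.21 and 6.58 in colon and 10.99 and 11.02 in small intestine (-3.99 ± 0.27, adjusted p = 0.000378). Gzmb had 7.69, 7.38 and 7.01 in colon and 10.54 and 10.52 in small intestine (-3.17 ± 0.25, adjusted p = 0.000821). Ccl5, a chemokine of such cells, had 8.82, 9.61 and 9.47 in colon and 13.97 and 13.06 in small intestine (-4.22 ± 0.37, adjusted p = 0.00118). The receptors Cd8a (-2.13 ± 0.21, adjusted p = 0.00196; -0.80 and -1.84 at its other probes), Cd3g (-1.96 ± 0.23, adjusted p = 0.00423) and the integrin Itgae, which binds T cells to epithelium (-1.40 ± 0.23, adjusted p = 0.0137), were lower. Cd3e (-0.42 ± 0.24, adjusted p = 0.344) did not pass. MHC class II and interferon genes were lower for 8 of 30 and higher for 2, and for 13 and 2 without colon pool 1. H2-Aa, a class II chain, stood at 9.64, 9.54 and 9.38 in colon and 11.44 and 10.95 in small intestine (-1.67 ± 0.23, adjusted p = 0.00772), and H2-DMa differed by -2.33 ± 0.35, adjusted p = 0.0105. Ifit2 (1.62 ± 0.29, adjusted p = 0.0207) and Oas2 (1.38 ± 0.24, adjusted p = 0.0173) were the 2 higher. None of 18 B and plasma cell genes passed limma's test (3 at an unadjusted p under 0.05; 1 lower without colon pool 1). Jchain, the joining chain of IgA, stood at 14, 13.95 and 14 in colon and 14.22 and 14.09 in small intestine (-0.17 ± 0.19, adjusted p = 0.626). Of 22 macrophage and mast cell genes Cd14 (2.22 ± 0.26, adjusted p = 0.00387), the mast cell protease Cma1 (2.13 ± 0.29, adjusted p = 0.00725) and Kit were higher, 3 in all, against 4 higher and 6 lower without colon pool 1.

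Of 28 smooth muscle and interstitial cell genes 11 were higher and 0 lower by limma's test, also at an unadjusted p under 0.05 (median 1.0), and 20 and 0 without colon pool 1. Tagln, an actin-binding protein of smooth muscle, had 16.34, 15.86 and 16.15 in colon, against 14.16 and 13.60 in small intestine (2.24 ± 0.27, adjusted p = 0.00411). Actg2, the enteric actin, had 13.59, 13.12 and 13.70 in colon and 11.42 and 11.15 in small intestine (2.19 ± 0.25, adjusted p = 0.00365). Acta2 had 15.95, 15.47 and 15.97 in colon and 14.45 and 14.05 in small intestine (1.55 ± 0.26, adjusted p = 0.0147). Ano1, the chloride channel of pacemaker cells, had 11.50, 10.84 and 11.27 in colon and 7.80 and 7.69 in small intestine (3.46 ± 0.25, adjusted p = 0.000543). Of 34 fibroblast, collagen and vessel genes 6 were higher and 1 lower, and 9 and 2 without colon pool 1, led by Postn, a matrix protein (12.73, 13.13 and 13.24 in colon, against 10.43 and 10.17 in small intestine; 2.73 ± 0.24, adjusted p = 0.00122). With all pools 20.6% of this list passed, against 9.78% of all genes. Col3a1 (1.26 ± 0.22, adjusted p = 0.0171) and Fn1 (1.31 ± 0.21, adjusted p = 0.0132) were higher, Col6a4 lower (-1.41 ± 0.24, adjusted p = 0.0162), and Pecam1 of vessels did not pass (-0.18 ± 0.20, adjusted p = 0.624). Among 23 enteric neuron and glia genes 1 was higher, Uchl1 (1.18 ± 0.25, adjusted p = 0.0368), and 1 lower, Sst, and 4 and 1 without colon pool 1. The 8.7% of this list past the threshold lay near the 9.78% of all genes. Without colon pool 1, 13.1% of all genes were higher and 11.3% lower. The part of the muscle genes in the values of epithelial genes was not tested.

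Pancreas enzymes were described apart because they varied between pools of the same organ. The elastase Cela3b had 16.41, 6.74 and 16.62 in colon pools 1, 2 and 3, against 14.35 and 12.71 in small intestine pools 1 and 2. Amy2a5, pancreatic amylase, had 15.69, 6.61 and 16.27 in colon and 12.82 and 11.78 in small intestine. Cpa1, a carboxypeptidase, had 15.08, 6.66 and 15.62 in colon and 13.28 and 11.62 in small intestine. Pnlip, pancreatic lipase, had 14.82, 6.55 and 15.72 in colon and 12.45 and 11.35 in small intestine. Colon pools 1 and 3 were thus above both small intestine pools for these 4 enzymes, and colon pool 2 was near the floor of the array, below both. Of 21 tested, 2 were higher in colon and 0 lower by limma's test, also at an unadjusted p under 0.05, and without colon pool 1 the counts were again 2 and 0. With all pools that is 9.5% of the list, against 9.78% of all genes. On the slide of pair 2, which holds colon pool 2, 19 of 21 were negative. The 2 higher were Sycn and Cela1. Sycn, syncollin of zymogen granules, had 16.06, 15.25 and 16.02 in colon and 12.18 and 10.65 in small intestine (4.36 ± 0.49, adjusted p = 0.00343). Cela1, an elastase, had 13.59, 12.25 and 13.95 in colon and 10.52 and 9.41 in small intestine (3.30 ± 0.57, adjusted p = 0.0174). These 2 stayed high in colon pool 2, where the other 19 stood between 6.49 and 10.84, as the plot by pool shows. Leaving out colon pool 2 turned the difference of Cela3b to 2.99 (adjusted p = 0.0158). Clps, the cofactor of lipase, was the highest of the 19 there. The share of tissue from outside the gut wall in the pools was not tested.

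**Figure D5:**
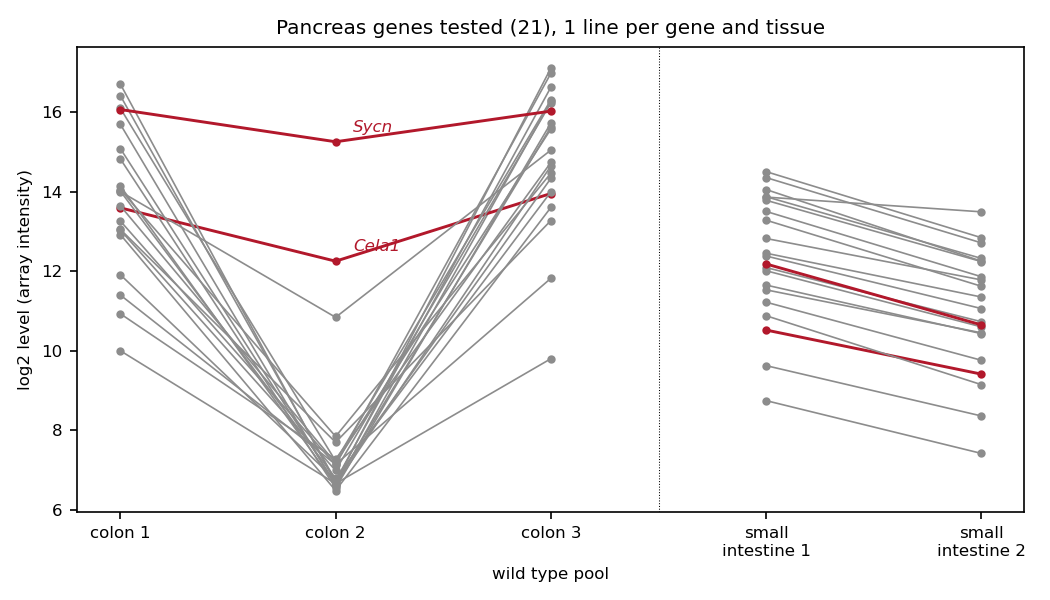
Log2 level of the 21 pancreas genes tested in each wild type pool, with colon left of small intestine; each line joins the pools of 1 gene within a tissue. In colon pool 2 Sycn (15.25) and Cela1 (12.25) stay high, in red, while the other genes lie at 10.84 or below.

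Markers of other tissues were counted as well. Of 10 stomach and squamous genes none passed limma's test (1 at an unadjusted p under 0.05; 1 higher and 1 lower without colon pool 1). Of 16 adipocyte, skeletal muscle and liver genes Des, which smooth muscle also makes (1.86 ± 0.32, adjusted p = 0.0168), was higher and Cidec (-3.15 ± 0.22, adjusted p = 0.000461) and Lipe (-1.35 ± 0.23, adjusted p = 0.0155) lower, and 3 and 3 without colon pool 1. Among 18 dissociation and stress genes 4 were higher in colon, Dusp1, Hspa1a, Hspa1b and Egr1, by 0.97 to 1.16, and 6 without colon pool 1, while Fos did not pass (0.02 ± 0.26, adjusted p = 0.976). Their part in other values was not tested. Of 4 sex-linked transcripts tested, 1 was higher in colon and 0 lower, with all pools and also without colon pool 1. With all pools their differences ran from -0.02 to 1.02, and the make-up of the pools by sex was not tested.

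The KO pools, measured on the same arrays in the other dye, gave the same sign of tissue difference for nearly all of these genes. In them 1411 of 15991 genes (8.82%) passed. Of the 1564 genes past the threshold in wild type pools, 1562 had the same sign in KO pools and 1277 (81.6%) passed there in the same direction. Aqp8 differed by 8.81 in KO pools, against 9.17 in wild type pools, and Insl5 by 6.95 in KO pools, against 6.97 in wild type pools. The genes whose tissue difference moved with genotype, 18 of 15991 by limma's test of that change, included genes of the Paneth list. Mmp7 differed between tissues by -0.71 in KO pools, against -4.48 in wild type pools, and Lyz1 by -2.73, against -4.56. Itln1 and Ang4, also on the Paneth list, were not among the 18. A change of their tissue difference with genotype was thus not shown, and their values are point estimates only. Itln1 differed by -1.001 in KO pools, against -5.378 in wild type pools. Ang4, which did not pass in wild type pools, differed by 1.453 in KO pools, against -1.112. Spdef itself was lower in KO than in wild type channels on all 10 adult arrays, with log2 differences, KO minus wild type, of -1.53 to -4.09. The slide, the hybridization and the dye order are shared between the KO and wild type values, so the repeat is not an independent experiment.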

How the data were processed

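Dual-channel Agilent arrays held wild type and Spdef KO pools of RNA, 500 ng of each labelled. The deposited intensities are scanner signals per spot, not normalized between arrays; per the file headers they were extracted with Agilent Feature Extraction 9.5.3.1, and per the submitters' processing notes with version 9.5.3. Mean signals were corrected for median local background by normexp (offset 50), normalized by loess within arrays and by Aquantile between the 10 adult arrays (limma 3.58.1, R 4.3.3), and the wild type channel was taken on the log2 scale. Control spots and outlier-flagged spots were left out, spots of a probe and the 2 dye orders of a pool were averaged, and a probe was kept if every array of colon, or every array of small intestine, had it well above background, and of several such probes the one with the highest mean was used. Of 66 named genes with another such probe, 23 had one whose difference was off by more than 1, and 0 of those past the threshold had one of the other sign. Where not given above, the other probes of these genes read as follows. Maf had -1.77 to -2.05, Dpp4 -2.31 and -4.73, Cyp3a25 -3.78, Slc2a2 -4.08, Mgam -3.78 and Onecut2 -2.86 and -3.55. Cma1 had 1.00, Cela1 2.29, Muc4 0.81 to 2.11 and Thbs4 4.30. No probe was saturated (0% on every array).

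The 3 colon and 2 small intestine pools were compared with lmFit and eBayes and Benjamini-Hochberg adjustment over 15991 genes (two-sided, threshold 0.05). Tested on simulated data for this comparison (15991 genes), the fit recovered 2% of 100 genes changed by 1 and 64% of 100 changed by 2 on the log2 scale. No other genes changed there, and all pools had equal spread, unlike in these data. Recovery in the real comparison may therefore differ. An "at least" fold sets the mean of the bright tissue against, per array of the dim tissue, the higher of the lowest signal among probes well above background and the dim probe's own. Probes were named through accessions and symbols of a RefSeq table (GRCm38.p6); 23477 of 41174 matched by accession, 6678 by symbol, 2891 by an older symbol, and 8128 kept the file's name. Probe positions are mm8, as in the files.

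The members and gene lists were chosen with earlier results of these data known. Genes were named by rule: the 5 markers, the 15 largest differences in each direction outside the pancreas list, and of each list its core members, up to 4 further members with the smallest adjusted p, and the members of a direction in which 5 or fewer passed. The 15 in each direction were taken among genes past the threshold whose pools did not overlap, with clone and RIKEN names left out. Aqp1, Aqp11, Car13, Foxa1, Foxa3, Foxd2, Hnf4g, Hoxb5, Hoxc9 and Nr1i3 were named after their values were seen. Some members counted in the lists are not reported here by name. Alternatives covered background correction, normalization, filter, probes, dye, blocks, samples in the fit, prior and leaving out each pool; those on colon pool 1 alone and within scan days were chosen after seeing the data. Pools of the same number in the 2 tissues shared a scan day, and those numbered 2 a slide; the labels tie no number to an animal. Their deviations correlated at 0.08 and 0.21.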

Additional observations from a re-analysis of the deposited data

Results flagged for a closer look

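The KO-minus-wild-type difference was not the same in colon and in small intestine, by limma's test of that difference itself, for 8 of the genes described above. Mmp7 was higher in KO pools by 2.91 in colon and differed by -0.85 in small intestine, a gap of 3.77 ± 0.24, adjusted p = 0.0126. For Lyz1 the values were 0.28 in colon and -1.54 in small intestine (1.82 ± 0.17, adjusted p = 0.0364), and for its paralog Lyz2 0.20 in colon and -0.90 in small intestine (1.10 ± 0.09, adjusted p = 0.0293). The defensins Defa20, at 0.14 in colon and -1.62 in small intestine (1.76 ± 0.15, adjusted p = 0.0278), and Defa21, at 0.01 in colon and -1.84 in small intestine (1.85 ± 0.08, adjusted p = 0.00877), had the gap in the same direction. Defa21 was above background on 0 of 6 wild type colon arrays and Defa20 on 3 of 6, so that a lower level in KO colon could not be measured for Defa21 and only in part for Defa20. Reg3b also had the gap in that direction, at 0.62 in colon and -0.46 in small intestine (1.08 ± 0.10, adjusted p = 0.0446). Both genes higher in wild type colon on this list had the opposite sign: Best2, at -0.76 in colon and 0.58 in small intestine (-1.33 ± 0.10, adjusted p = 0.0239), and Sval1, at -0.79 in colon and 0.43 in small intestine (-1.22 ± 0.08, adjusted p = 0.0177). Each value is a log2 difference over 3 colon and 2 small intestine pool pairs.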

How the results depend on the processing

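The 192 genes named and past the threshold kept their direction under every alternative that could be fitted, except that the strict filter left 134 of them to test, all in the same direction (over all genes past the threshold, 1199 of the 1200 it tested); 97 stayed past the threshold at the fewest, with Cy3 values alone. Against 815 higher and 749 lower genes, the scanner's processed signals gave 1590 higher and 1565 lower, median centring 219 higher and 133 lower (median of all genes 0.31, against 0.04), wild type pools of 4 groups in one fit 578 higher and 415 lower, Cy3 values alone 125 higher and 197 lower, Cy5 values alone 2258 higher and 2005 lower, arrays with a dye term and the pool as random block 1446 higher and 1139 lower, and wild type and KO pools in one fit 1279 higher and 1034 lower. Of calls, 52.1% were higher as reported, 62.2% with median centring and 64.5% with the strict filter (926 higher and 510 lower). Colon pool 1 left out of filter and fit gave 2121 higher and 1791 lower, and its dye swap array alone 2704 higher and 2236 lower; both were chosen after seeing the data. Leaving out each pool in turn gave 148 to 2092 higher and 252 to 1800 lower in wild type pools, and 139 to 1676 higher and 269 to 1508 lower in KO pools, where all pools gave 713 higher and 698 lower. The KO counts were 547 higher and 558 lower without a filter and 1297 higher and 1346 lower with processed signals. With the pool number as a replicate block, 586 higher and 903 lower genes passed in wild type and 581 higher and 948 lower in KO pools. Of the 192 named genes, 162 stayed past the threshold in wild type pools with that block. The slide as a random block could not be fitted, and the causes of these changes were not tested. None of the named genes whose sign turned was past the threshold with all pools: with processed signals Amy2a5 -0.92, Cpa1 -0.91, Jchain 0.0126, Mep1a -0.23, Muc13 -0.0748, Muc3 0.46, Pnlip -0.81, Zg16 -0.0534, and with replicate block Amy2a5 -1.15, Chga 0.0344, Cpa1 -1.58, Fos -0.0106, Guca2a -0.065, Pnlip -1.21, and with colon pool 1 left out of filter and fit Amy2a5 -0.86, Cdx2 0.0101, Cpa1 -1.31, Muc3 0.37, Pnlip -0.76, and with colon pool 1 from its dye swap array alone Cdx2 0.13, Mep1a -0.15, Muc3 0.37, and with median centring Cela3b 0.16, Chga 0.37, Cldn7 0.20, Clps 0.0889, Hnf4a 0.11, Jchain 0.29, Krt20 0.40, Muc3 0.15, Tff3 0.37, and with Cy3 channel only Chga 0.0522, Cpa1 -0.00433, Fos -0.0676, Guca2a -0.94, and with no background subtraction Cpa1 -0.0378, and with Cy5 channel only Mep1a -0.0236, Muc13 -0.0409, Muc3 0.39, and with mean of all probes Muc3 0.0914. Leaving out each pool, the differences that turned sign ranged as follows, Amy2a5 -1.15 to 3.68, Cdx2 -1.59 to 0.0101, Cela3b -1.96 to 2.99, Chga -0.24 to 0.0344, Clca1 -0.0981 to 0.61, Clps -1.25 to 0.84, Cpa1 -1.58 to 2.90, Dclk1 -0.0907 to 0.37, Fos -0.18 to 0.22, Guca2a -0.35 to 1.26, Muc3 -0.52 to 0.37, Pnlip -1.21 to 3.37, Tff3 -0.38 to 0.15. Signals near background limit what dim genes show.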

Other observations

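Of 15 genes of the urinary and genital tract, 14 had a probe and 6 were tested. Wfdc2 was higher and Upk1b, a uroplakin, lower in colon (-1.07 ± 0.21, adjusted p = 0.0249), and 1 was higher and 3 lower without colon pool 1. Upk1b stood at 7.18, 7.05 and 6.94 in the colon pools, against 8.0 and 8.27 in the small intestine pools.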
